A study of Homo sapiens with 6 samples.

Results

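The genes described are 35 aminoacyl-tRNA synthetase genes, chosen by gene symbol from the 58825 genes of the count table. They fall into 19 genes whose products work in the cytosol and 16 genes, with symbols that end in 2, whose products work in mitochondria. The rule that chose them uses symbols and not expression values. All 35 passed the filter on low counts, as did 19528 genes in all, with 165 to 14905 counts per gene and library.

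Aminoacyl-tRNA synthetases join each amino acid to the tRNA that carries its anticodon, which is the step where the genetic code is read. Human cells keep separate nuclear genes for the cytosolic and the mitochondrial enzymes of most amino acids, while GARS1 (glycine) and KARS1 (lysine) serve both compartments from 1 gene each and are counted here as cytosolic. Several cytosolic enzymes are held in a large multi-synthetase complex with the scaffold proteins AIMP1, AIMP2 and EEF1E1. When uncharged tRNA accumulates, the kinase GCN2 is activated and the transcription factor ATF4 raises the transcription of many cytosolic synthetase genes.

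RNA sequencing was done on HGC-27, a human gastric cancer cell line, in 2 groups of 3 libraries. The GC0643 overexpression group (replicates 1 to 3) carried GC0643, a gene that the study predicted on sequence missing from the reference genome, after retroviral infection and selection with puromycin. The Vector control group (replicates 1 to 3) was HGC-27 with the vector. Both groups share the cell line, its RPMI-1640 medium with fetal bovine serum and the library kit, and whether the stable cells were a clone or a pool is not given in the sources used here. Independent replications are stated for the in vitro experiments of the study in general, but not whether these libraries came from separate cultures, so the p-values measure only the spread between these libraries, which may be technical. GC0643 itself has no row in the count table, so the group labels could not be checked against it.

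The libraries held 20376722 to 21629573 counts with GC0643 and 20489033 to 24069166 counts with vector. Across genes, the log2 CPM (counts per 1000000 counts of a library) of Vector control replicate 2 correlated with those of GC0643 overexpression replicates 1, 2 and 3 at Pearson r of 0.985, 0.990 and 0.990. Within its own group, r was 0.987 with replicate 1 and 0.976 with replicate 3. Vector control replicate 3 stood apart from most libraries, at r of 0.971 to 0.977 with the GC0643 overexpression libraries and 0.985 with Vector control replicate 1. Of 5 epithelial markers, only KRT8 passed the filter, with 83 to 159 counts per library, while EPCAM had 4 to 9 counts, CDH1 1 to 9, KRT18 0 to 3 and KRT19 0 to 1. All 6 fibroblast markers were tested, and their summed level was 4195 to 4946 CPM with GC0643 against 4144 to 4789 CPM with vector. COL3A1 and COL1A1 made up most of this sum, with log2 fold changes of 0.021 and -0.076. Of the others, 3 were higher with GC0643 without overlap between groups, a pattern of 11.8% of all genes tested. These were LUM by 0.78 on the log2 scale (unadjusted p = 0.000522), DCN by 0.47 (unadjusted p = 0.00565) and COL1A2 by 0.46 (unadjusted p = 0.00683). PDGFRB went the other way, at -0.36 with overlap (unadjusted p = 0.0817, all in edgeR's quasi-likelihood test). After the GC correction described below, LUM was at 0.46, DCN at 0.17, COL1A2 at 0.57, COL1A1 at 0.12, COL3A1 at 0.079 and PDGFRB at -0.19. The leukocyte markers summed to 3.87 to 5.13 CPM with GC0643 against 4.53 to 5.86 CPM with vector, and the endothelial markers to at most 0.467 CPM with GC0643 and 0.443 CPM with vector. The erythroid markers summed to 15.4 to 21.3 CPM with GC0643 against 26.9 to 32.8 CPM with vector. This sum came from HBA1 and HBA2 alone, as HBB and HBG1 had no counts in any library. HBA1 was at -0.59 (unadjusted p = 0.00432) and HBA2 at -0.63 (unadjusted p = 0.00204, both in edgeR's quasi-likelihood test). Both were lower with GC0643 without overlap, a pattern of 10.5% of all genes tested. After the GC correction they were at -0.38 and -0.43. The part of these markers in the results was not tested.

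Transcripts of the cytosolic enzymes were far more abundant than those of the mitochondrial ones in both groups. Per kilobase of the canonical transcript, the median level was 90.7 CPM per kb over the cytosolic genes and 13.8 CPM per kb over the mitochondrial genes, a ratio of 6.57. The level of 16 of the 19 cytosolic genes exceeded that of every mitochondrial gene. The exceptions were RARS1 (arginine) at 32.6 CPM per kb, LARS1 (leucine) at 29.3 CPM per kb and FARSB, the beta subunit of the cytosolic phenylalanine enzyme, at 9.27 CPM per kb. The canonical transcript of FARSB is 6761 bases long, and by CPM alone, without division by length, 17 cytosolic genes exceeded every mitochondrial one.

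The order of the cytosolic levels ran from GARS1 at 167 CPM per kb through SARS1 (serine) at 160, FARSA, the alpha subunit of the phenylalanine enzyme, at 143, AARS1 (alanine) at 135, VARS1 (valine) at 128, KARS1 at 119 and MARS1 (methionine) at 102 CPM per kb. Neighbours in this order were not separated: GARS1 spanned 149 to 182 CPM per kb over the 6 libraries and SARS1 137 to 194 CPM per kb. Among the mitochondrial genes, CARS2 (cysteine) at 34.8, IARS2 (isoleucine) at 32.0 and VARS2 (valine) at 31.3 CPM per kb were highest, and their ranges overlapped too. PARS2, the mitochondrial proline enzyme, was lowest at 4.12 CPM per kb. The 13 amino acids with 1 separate gene of each kind all had the higher level in the cytosolic gene. The ratio ran from 1.43-fold for cysteine (CARS1 over CARS2) to 16.2-fold for tryptophan (WARS1 over WARS2), with a median of 4.11-fold. Phenylalanine is not among them, and its mitochondrial gene FARS2, at 21.1 CPM per kb, lay above FARSB and below FARSA. Glutamate and proline are not among them either, and EPRS1, which serves both in the cytosol, was at 40.7 CPM per kb, above EARS2 at 15.1 and PARS2. The ranking of the levels was nearly the same in both groups (Spearman rho = 0.985 across the 35 genes, which share the libraries).

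**Figure D1:**
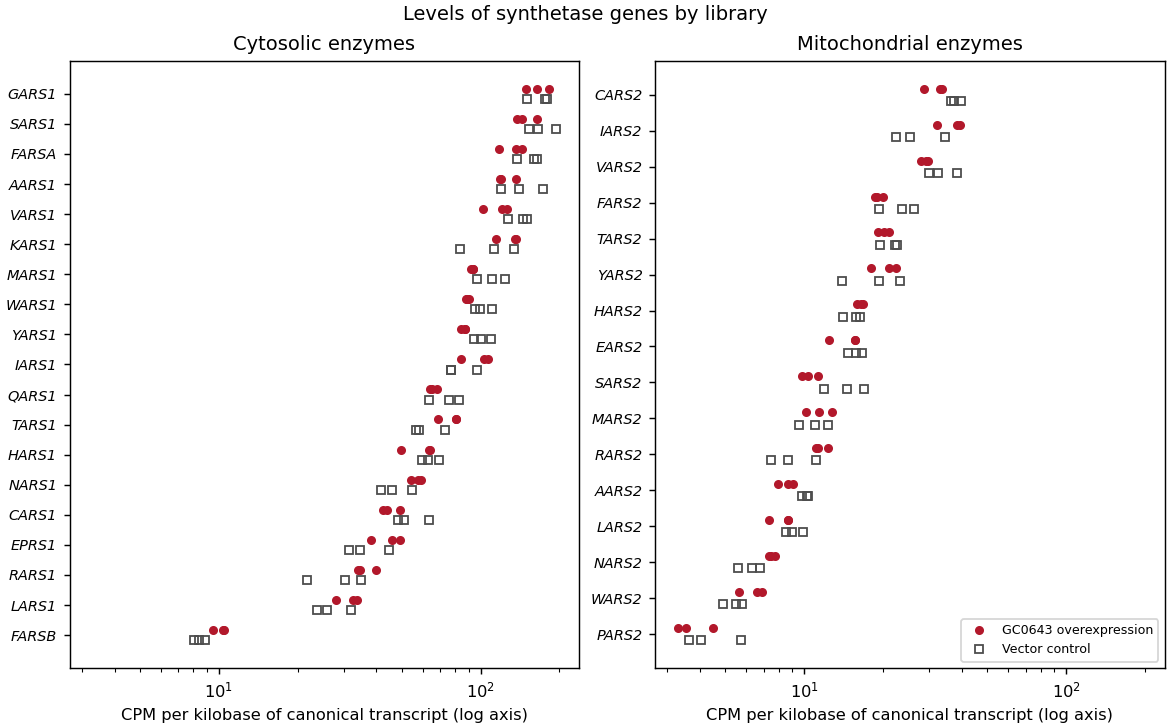
Level of each synthetase gene in CPM per kilobase of canonical transcript (log axis) in every library, with GC0643 overexpression as filled circles and Vector control as open squares. The cytosolic genes run from 9.27 to 167 CPM per kb and the mitochondrial genes from 4.12 to 34.8 CPM per kb on average, and the groups lie close together for each gene.

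Summed over the 19 cytosolic genes, the level was 4563, 4379 and 4569 CPM in the GC0643 overexpression libraries and 4593, 4617 and 4859 CPM in the Vector control libraries. The groups did not overlap, with means of 4504 ± 108 CPM with GC0643 and 4690 ± 147 CPM with vector (SD, n = 3 each), a difference of -3.97%. Summed over the 16 mitochondrial genes, the level was 713, 749 and 770 CPM with GC0643 and 761, 770 and 741 CPM with vector, and the groups overlapped. Their means were 744 ± 29 CPM with GC0643 and 757 ± 15 CPM with vector (SD, n = 3 each), a difference of -1.74%. These sums are without the GC correction described below. Fewer cells of a type and less RNA per cell cannot be told apart in such bulk libraries.

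The comparison of GC0643 overexpression with Vector control asks which genes change when the predicted gene is expressed. No synthetase gene passed an adjusted p of 0.05 in edgeR's quasi-likelihood test with Benjamini-Hochberg adjustment, and neither did any of the 19528 genes tested (0%). At an unadjusted p under 0.05, 4 synthetase genes were higher, where 13.1% of all genes tested were, and 2 were lower, where 5.26% of all genes were. The DESeq2 test called 11 genes at an adjusted p of 0.05, none of them a synthetase gene. None of the 35 passed the thresholds of the study (a fold change over 1.5 with an unadjusted p under 0.05), which 1.6% of all genes passed as higher and 0.871% as lower. The largest change of a synthetase gene was 1.38-fold, that of SARS2.

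The log2 fold change was above 0 for 15 of the 35 genes and below 0 for 20, and its median was -0.11. Over all genes tested, 10136 lay above 0 and 9392 below, and the median was 0.018. Cytosolic and mitochondrial genes did not part. The 19 cytosolic genes had 8 positive and 11 negative fold changes with a median of -0.12, and the 16 mitochondrial genes had 7 positive and 9 negative with a median of -0.10. The difference of the medians was -0.017 on the log2 scale, and it ranged from -0.071 to 0.0048 when each library in turn was left out. In edgeR's quasi-likelihood test, the genes with an unadjusted p under 0.05 were also shared out evenly. Each compartment held 2 that were higher and 1 that was lower. This split depended on the method. With DESeq2, 0 cytosolic genes were higher and 4 lower, and 1 mitochondrial gene was higher and 3 lower. Over all genes, 2089 were then higher and 1404 lower. With a block for replicate number, 0 cytosolic genes were called, and 1 mitochondrial gene was higher and 1 lower. Over all genes, 1945 were then higher and 314 lower. The calls named first changed too when a library was left out, which also leaves fewer libraries to test. The cytosolic genes called kept their sign in each omission: VARS1 at -0.36 to -0.19, TARS1 at 0.21 to 0.42 and FARSB at 0.22 to 0.30. In the cytosolic set none was higher and none lower without GC0643 overexpression replicate 3, Vector control replicate 1 or Vector control replicate 3 (0 of 19 each). Without Vector control replicate 2, 8 were higher and 9 lower, where 22.8% of all genes were higher and 14.2% lower. In the mitochondrial set these counts ran from 0 to 3 higher and from 1 to 5 lower over the 6 omissions. The libraries of both groups did not overlap for 3 genes that were higher with GC0643 (FARSB, NARS2 and RARS2), where 11.8% of all genes tested had this pattern. They did not overlap for 8 genes that were lower (MARS1, VARS1, WARS1, YARS1, AARS2, CARS2, SARS2 and VARS2), where 10.5% of all genes did.

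**Figure D2:**
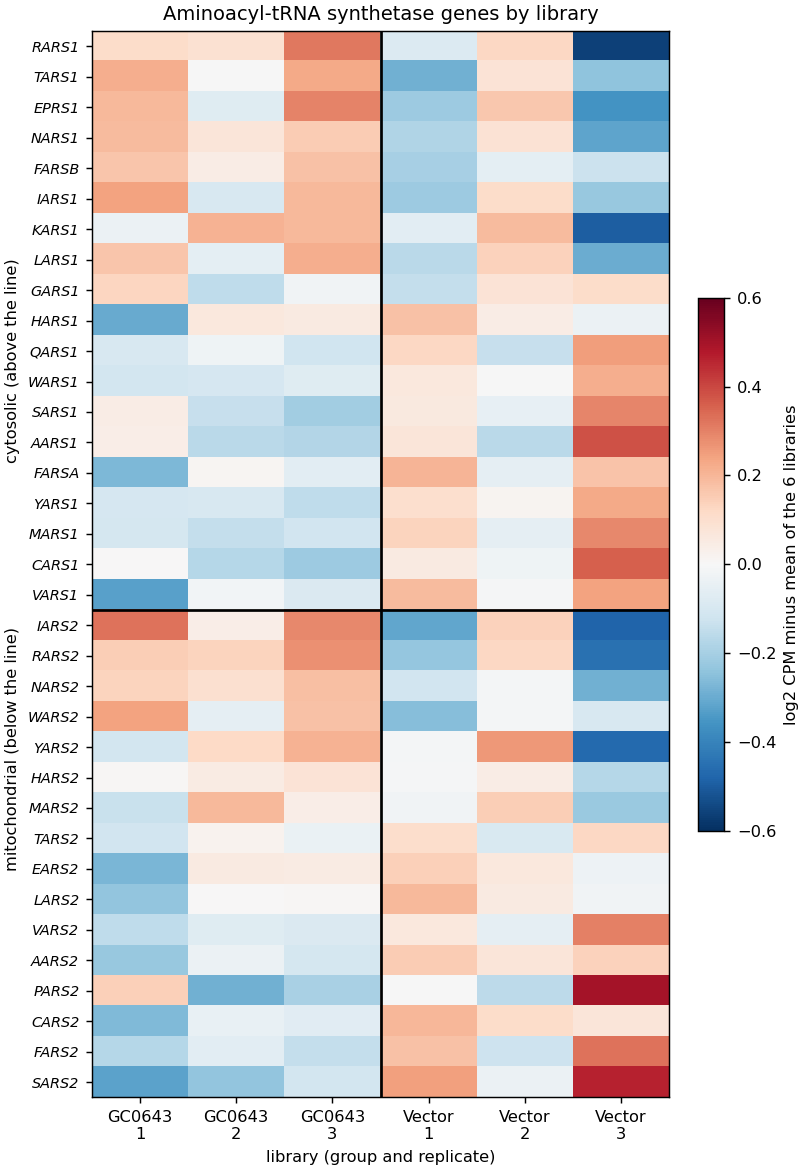
Deviation of the log2 CPM of each synthetase gene from its mean over the 6 libraries (color), with the GC0643 overexpression libraries left and the Vector control libraries right, cytosolic genes above the line and mitochondrial genes below, each ordered by fold change. The upper rows of both blocks are mostly above the mean with GC0643, the lower rows mostly below it, and Vector control replicate 2 departs from the other vector libraries in many rows.

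SARS2, which charges mitochondrial serine tRNAs, had the smallest unadjusted p of the synthetase genes. It had 18.9, 20.0 and 21.8 CPM in GC0643 overexpression replicates 1, 2 and 3, against 27.9, 23.0 and 32.5 CPM in Vector control replicates 1, 2 and 3. All 3 GC0643 libraries were below all 3 vector libraries, of which replicate 2 was the nearest. The log2 fold change was -0.46 with a standard error of 0.15, an unadjusted p of 0.00916 and an adjusted p of 0.26 (edgeR quasi-likelihood test). SARS2 shares 48.2% of its annotated exon bases with the read-through gene ENSG00000269547, so its counts are uncertain.

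IARS2, the mitochondrial isoleucine enzyme, had the largest positive change. Its level was 139, 114 and 135 CPM with GC0643 and 89.1, 122 and 79.3 CPM with vector, so that Vector control replicate 2 lay above GC0643 overexpression replicate 2. The log2 fold change was 0.42 ± 0.15 (standard error), with an unadjusted p of 0.0157 and an adjusted p of 0.26.

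RARS2, the mitochondrial arginine enzyme, had 25.2, 25.0 and 27.5 CPM with GC0643 and 19.4, 24.8 and 16.7 CPM with vector. The groups did not overlap, but Vector control replicate 2 came close to the GC0643 libraries. The log2 fold change was 0.35 ± 0.16 (standard error; unadjusted p = 0.0415, adjusted p = 0.267). CARS2, the mitochondrial cysteine enzyme, went the other way, with 52.9, 61.6 and 60.7 CPM with GC0643 and 73.0, 68.6 and 66.9 CPM with vector. All GC0643 libraries were below all vector libraries. The log2 fold change of -0.25 ± 0.12 (standard error) did not pass the unadjusted threshold in edgeR's quasi-likelihood test (unadjusted p = 0.0603).

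Among the cytosolic genes, VARS1, the valine enzyme, had the smallest p. It had 418, 519 and 494 CPM with GC0643 and 597, 522 and 620 CPM with vector, with no overlap, although Vector control replicate 2 came close to GC0643 overexpression replicate 2. The log2 fold change was -0.28 ± 0.12 (standard error; unadjusted p = 0.0339, adjusted p = 0.262). TARS1, the threonine enzyme, had 214, 184 and 216 CPM with GC0643 and 151, 195 and 156 CPM with vector. Vector control replicate 2 exceeded GC0643 overexpression replicate 2, and the log2 fold change was 0.29 ± 0.13 (standard error; unadjusted p = 0.0401, adjusted p = 0.267). MARS1, which charges both the initiator and the elongator methionine tRNAs, had 263, 256 and 261 CPM with GC0643 against 310, 272 and 345 CPM with vector. The GC0643 libraries were the lower ones in every pairing, and the log2 fold change was -0.25 ± 0.12 (standard error; unadjusted p = 0.0514). Exons of MARS1 overlap DDIT3 and ARHGAP9 on the other strand over 5.05% and 7.38% of its exon bases, and whether strand was used in counting these libraries is not given in the sources used here.

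**Figure D3:**
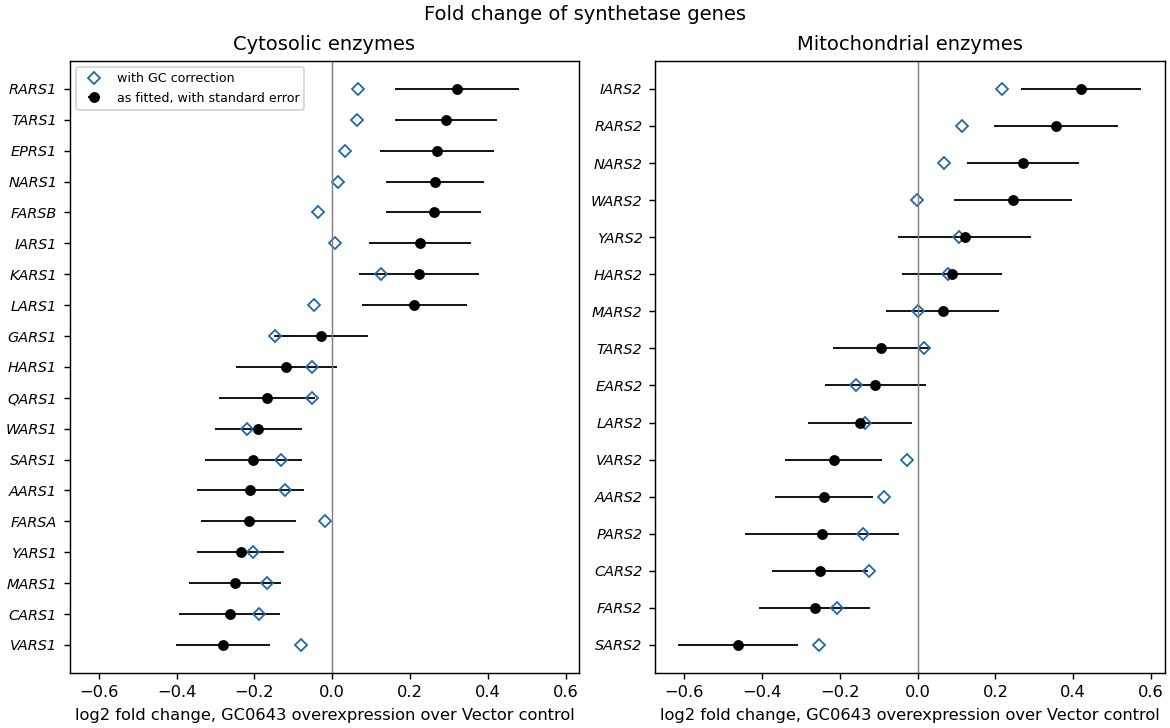
Log2 fold change of each synthetase gene, GC0643 overexpression over Vector control, as fitted (filled circles with the standard error of the quasi-likelihood fit) and after correction for the GC content of the transcript (open diamonds). As fitted, the genes range from -0.46 (SARS2) to 0.42 (IARS2), and most move toward 0 with the correction.

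The cytosolic phenylalanine enzyme is built from 2 subunits that are encoded by different genes and work as a tetramer, and their transcripts lay on opposite sides of 0. FARSB, the beta subunit, had 70.0, 64.4 and 70.5 CPM with GC0643 and 54.3, 59.8 and 57.0 CPM with vector, with no overlap, a log2 fold change of 0.26 ± 0.12 (standard error) and an unadjusted p of 0.0479 (adjusted p = 0.27). FARSA, the alpha subunit, had 214, 260 and 246 CPM with GC0643 and 297, 248 and 290 CPM with vector, where replicate 2 of the vector group fell among the GC0643 libraries, and its log2 fold change was -0.22 ± 0.12 (standard error; unadjusted p = 0.0991). Counts of FARSB were 32.7%, 24.8% and 28.6% of those of FARSA in the GC0643 overexpression libraries and 18.3%, 24.1% and 19.6% in the Vector control libraries. The ratio of the mean ratios was 1.39. FARS2, the single-chain mitochondrial phenylalanine enzyme, had 31.2, 33.6 and 31.9 CPM with GC0643 and 39.8, 32.3 and 44.1 CPM with vector (log2 fold change -0.26, unadjusted p = 0.0831).

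The 2 subunits also differ in base composition, and so do the genes at the ends of the order of fold changes. The transcript of FARSB is 39.99% G and C and that of FARSA 61.3%, while IARS2 is at 43.5% and SARS2 at 61.4%. To show this in letters, 90 coding bases of each gene are given (GRCh38, GENCODE v44, the stretch within 1 coding exon whose GC content is nearest to that of the whole canonical transcript), 5′ to 3′ on the strand of the gene, with G and C in capitals.
FARSB, exon 3, chr2:222642896-222642985, minus strand: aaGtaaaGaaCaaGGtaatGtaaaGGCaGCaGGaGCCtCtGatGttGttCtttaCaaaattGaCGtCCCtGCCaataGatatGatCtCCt
FARSA, exon 3, chr19:12930429-12930518, minus strand: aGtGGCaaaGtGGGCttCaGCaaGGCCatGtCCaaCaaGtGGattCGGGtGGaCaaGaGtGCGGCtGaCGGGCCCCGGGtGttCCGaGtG
IARS2, exon 3, chr1:220100491-220100580, plus strand: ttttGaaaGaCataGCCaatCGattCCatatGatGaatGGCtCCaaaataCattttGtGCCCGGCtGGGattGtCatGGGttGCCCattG
SARS2, exon 1, chr19:38930530-38930619, minus strand: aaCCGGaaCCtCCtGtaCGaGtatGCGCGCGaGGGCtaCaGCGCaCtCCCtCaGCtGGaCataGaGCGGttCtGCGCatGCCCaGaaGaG
The stretches of FARSB and IARS2, both with positive fold changes, hold 36 and 39 G or C bases of 90. Those of FARSA and SARS2, both with negative fold changes, hold 55 each.

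Across all 35 synthetase genes, the fold change followed the GC content of the transcript more closely than it followed the compartment. The Spearman correlation of GC content and log2 fold change was -0.86 over the 35 genes, -0.85 over the cytosolic and -0.86 over the mitochondrial ones, and -0.67 over the 19401 tested genes with a GC value (genes share the 6 libraries, and no p is given). All 11 synthetase genes under 45% GC had positive fold changes, 7 of them cytosolic (EPRS1, FARSB, IARS1, LARS1, NARS1, RARS1 and TARS1) and 4 mitochondrial (IARS2, NARS2, RARS2 and WARS2). All 17 genes over 50% GC had negative fold changes, 9 cytosolic (AARS1, CARS1, FARSA, HARS1, MARS1, QARS1, SARS1, VARS1 and YARS1) and 8 mitochondrial (AARS2, CARS2, FARS2, LARS2, PARS2, SARS2, TARS2 and VARS2). The 7 genes between held 4 positive and 3 negative fold changes.

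The same order is seen in the table as a whole. The median log2 fold change of the synthetase genes was 0.27 under 45% GC and -0.24 over 50% GC. Of all genes tested, 88% were positive under 45% GC and 20.3% over 50% GC, and the medians were 0.31 and -0.17. Under 45% GC, 4 of the 11 synthetase genes were higher at an unadjusted p under 0.05, where 32.6% of the 6682 genes of that class were. Over 50% GC, 2 of the 17 were lower, where 10.3% of the 9331 genes were. Within a class the compartments were close, with medians of 0.26 for the cytosolic and 0.31 for the mitochondrial genes under 45% GC, and of -0.22 and -0.24 over 50% GC.

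**Figure D4:**
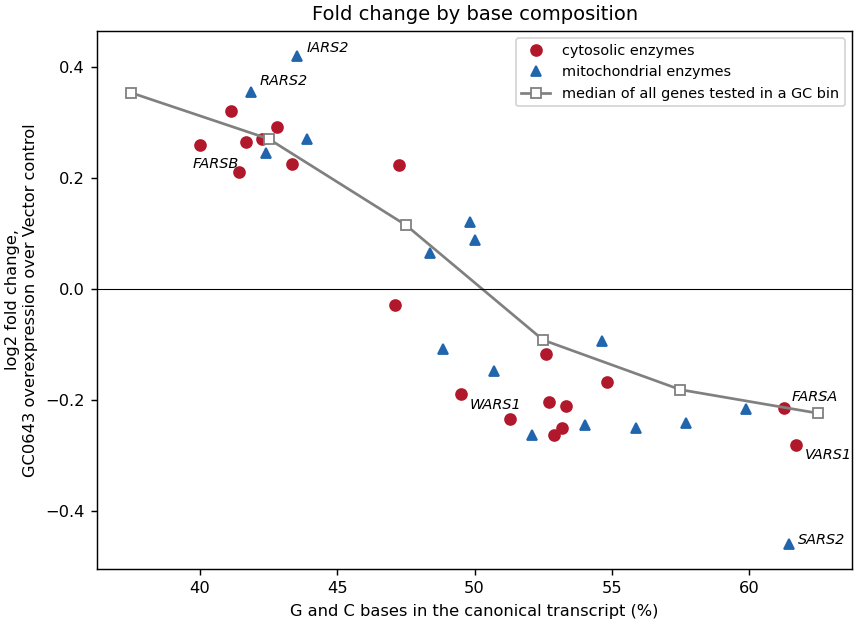
Log2 fold change of each synthetase gene, GC0643 overexpression over Vector control, against the percentage of G and C bases in its canonical transcript (circles cytosolic, triangles mitochondrial), with the median of all genes tested in each GC bin (open squares, drawn at the middle of the bins of 5 percentage points and beside the open-ended ones). Cytosolic and mitochondrial genes lie along the same falling line, from IARS2 at 0.42 to SARS2 at -0.46.

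The libraries themselves show the same split. The median deviation of the 11 genes under 45% GC from their mean over the 6 libraries was 0.19, 0.040 and 0.22 in the GC0643 overexpression libraries and -0.22, 0.11 and -0.30 in the Vector control libraries (log2 scale). That of the 17 genes over 50% GC was -0.15, -0.065 and -0.11 with GC0643 and 0.13, -0.050 and 0.25 with vector. Vector control replicate 2 was thus on the side of the GC0643 libraries in both classes. The 6682 and 9331 genes of the whole table behaved alike, with 0.079 and -0.030 in Vector control replicate 2.

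**Figure D5:**
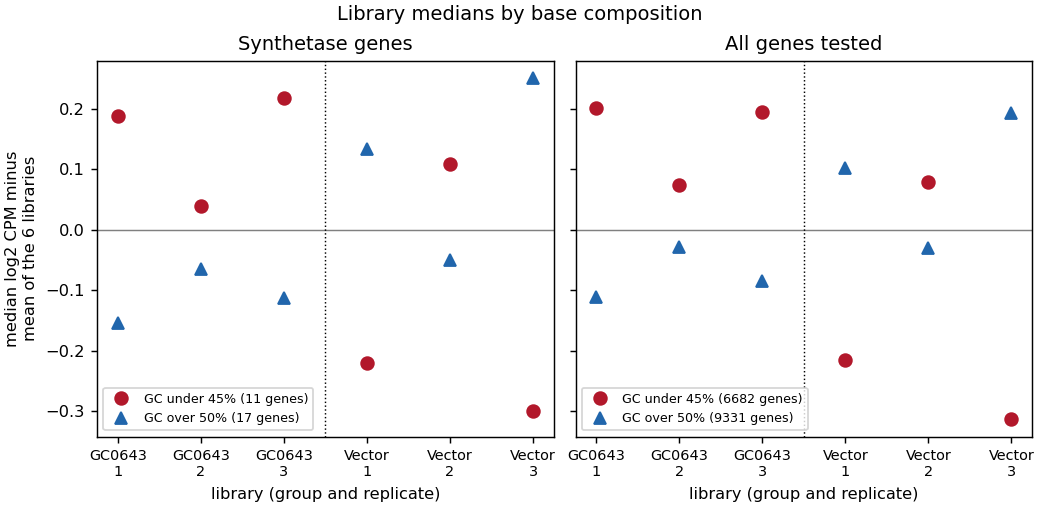
Median log2 CPM relative to the mean of the 6 libraries, by library, for synthetase genes (left) and all genes tested (right) under 45% GC (circles) and over 50% GC (triangles). In both panels the classes part in opposite directions in the GC0643 overexpression libraries and in Vector control replicates 1 and 3, and Vector control replicate 2 has the order of the GC0643 libraries.

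When the counts were corrected for transcript GC content in the fit, 31 of the 35 synthetase genes kept their sign. FARSB (-0.037), LARS1 (-0.046) and WARS2 (-0.0012) lost the positive sign and TARS2 (0.016) the negative one. The median log2 fold change became -0.051 over the cytosolic genes and -0.015 over the mitochondrial ones. No synthetase gene was then higher at an unadjusted p under 0.05, where 2.87% of all genes were. Lower were 3 genes, where 3.24% of all genes were. In edgeR's quasi-likelihood test, SARS2 was at -0.25 (unadjusted p = 0.0361), the cytosolic WARS1 at -0.22 (unadjusted p = 0.0324) and the cytosolic YARS1 at -0.20 (unadjusted p = 0.0304), with adjusted p-values above 0.05. WARS1, the tryptophan enzyme, had 232, 233 and 238 CPM with GC0643 and 261, 250 and 291 CPM with vector. YARS1, the tyrosine enzyme, had 213, 213 and 205 CPM with GC0643 and 245, 231 and 267 CPM with vector. Neither overlapped between groups. Without the GC correction, their mitochondrial counterparts were positive and did not pass the test, WARS2 at 0.25 and YARS2 at 0.12. With it, WARS2 was at -0.0012 and YARS2 at 0.11.

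Leaving out Vector control replicate 2 changed the calls more than any other library. Without it, 9 synthetase genes passed an adjusted p of 0.05, where 14.7% of all genes passed as higher and 4.36% as lower. EPRS1 (0.44, adjusted p = 0.0331), NARS1 (0.39, 0.0317), RARS1 (0.48, 0.0369), TARS1 (0.42, 0.0273), IARS2 (0.62, 0.0108) and RARS2 (0.53, 0.0198) rose, all with transcripts of 41.1% to 43.5% GC. MARS1 (-0.33, adjusted p = 0.0463), FARS2 (-0.38, 0.0422) and SARS2 (-0.58, 0.0132) fell, with transcripts of 52.1% to 61.4% GC. With the GC correction as well, none of the 35 passed, and neither did any other gene (0 by edgeR's quasi-likelihood test, with an unadjusted p under 0.05 for 1364 genes that were higher and 1062 that were lower). The omission of each library in turn was planned, and its combination with the GC correction was added after the likeness of this library to the other group had been seen.

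For 13 amino acids both the cytosolic and the mitochondrial gene were measured, apart from phenylalanine. Their fold changes had the same sign in 7 of the 13. Both were positive for isoleucine (IARS1 0.23, IARS2 0.42), asparagine (NARS1 0.26, NARS2 0.27) and arginine (RARS1 0.32, RARS2 0.35), and both genes of each of these pairs were under 45% GC. Both were negative for alanine (AARS1 -0.21, AARS2 -0.24), cysteine (CARS1 -0.26, CARS2 -0.25), serine (SARS1 -0.20, SARS2 -0.46) and valine (VARS1 -0.28, VARS2 -0.22), with all 8 genes over 50% GC. In the 6 pairs with unlike signs, the positive gene had the lower GC content each time. In the tryptophan pair WARS1 was at 49.5% GC and WARS2 at 42.4%, and in the leucine pair LARS1 (0.21) was at 41.4% and LARS2 (-0.15) at 50.7%. For histidine, HARS1 was at -0.12 and HARS2 at 0.089, and for methionine MARS2 was at 0.064. HARS1 and HARS2 lie head to head and share 108 exon bases.

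Threonine gave the pair with unlike signs in which 1 gene had an unadjusted p under 0.05. TARS2, the mitochondrial enzyme, had 52.1, 57.2 and 54.9 CPM with GC0643 and 60.7, 53.0 and 61.6 CPM with vector, with a log2 fold change of -0.094 ± 0.13 (standard error; unadjusted p = 0.465). The TARS1 counts were 4.11, 3.21 and 3.93 times the TARS2 counts with GC0643 and 2.49, 3.68 and 2.52 times with vector. Vector control replicate 2 again lay among the GC0643 libraries. The mean ratios were 3.75 ± 0.48 with GC0643 and 2.90 ± 0.68 with vector (SD, n = 3 each).

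The 7 synthetase genes of the multi-synthetase complex had a median log2 fold change of 0.22, and the 12 other cytosolic genes one of -0.20. EPRS1, which joins the glutamate and the proline enzyme in 1 chain, was at 0.27 ± 0.15, IARS1 at 0.23 ± 0.13, KARS1 at 0.22 ± 0.15, LARS1 at 0.21 ± 0.14 and RARS1 at 0.32 ± 0.16 (standard errors). QARS1, the glutamine enzyme, was at -0.17 ± 0.12 and MARS1 at -0.25. None of the 7 had an unadjusted p under 0.05, and the median GC content was 43.3% in the complex and 52.0% outside it. After the GC correction the median of the 7 was 0.0076. EPRS1 had 224, 186 and 240 CPM with GC0643 and 168, 218 and 152 CPM with vector, and RARS1 had 73.5, 72.4 and 84.7 CPM with GC0643 and 64.3, 74.2 and 46.1 CPM with vector. In both genes Vector control replicate 2 overlapped the GC0643 libraries and replicate 3 was the lowest of all.

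The genes of the scaffold proteins were ordered by GC content in the same way. AIMP1, with a transcript of 35.2% GC, had 29.2, 28.8 and 32.7 CPM with GC0643 and 21.1, 29.0 and 14.6 CPM with vector (log2 fold change 0.49, unadjusted p = 0.0253, adjusted p = 0.26). EEF1E1, at 36.4% GC, had a log2 fold change of 0.39 (unadjusted p = 0.0477), and AIMP2, at 51.2% GC, one of -0.25 (unadjusted p = 0.069). With all 6 libraries none passed an adjusted p of 0.05 in edgeR's quasi-likelihood test. Without Vector control replicate 2, AIMP1 (adjusted p = 0.0110) and EEF1E1 (adjusted p = 0.0134) did, where 14.7% of all genes passed as higher. After the GC correction with all 6 libraries, AIMP1 was at 0.16 (unadjusted p = 0.277) and EEF1E1 at 0.074 (unadjusted p = 0.593). AIMP2 was then at -0.22 (unadjusted p = 0.0637, all in edgeR's quasi-likelihood test).

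GARS1, which supplies the glycine enzyme to both compartments, had 444, 364 and 399 CPM with GC0643 and 366, 428 and 437 CPM with vector, with a log2 fold change of -0.029 ± 0.12 (standard error). KARS1, the lysine enzyme of both compartments, had 228, 271 and 268 CPM with GC0643 and 224, 267 and 166 CPM with vector, and its groups overlapped as well. By structural class, the class I genes, whose catalytic domain has a Rossmann fold, had 8 positive and 10 negative fold changes of 18. The class II genes, built on antiparallel beta sheets, had 6 positive and 10 negative of 16. EPRS1 joins an enzyme of each class and is in neither count.

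None of the remaining mitochondrial genes had an unadjusted p under 0.05. NARS2 had 18.8, 18.4 and 19.4 CPM with GC0643 and 15.9, 17.0 and 14.1 CPM with vector, without overlap (log2 fold change 0.27, unadjusted p = 0.0809). AARS2 had 38.2, 43.6 and 41.6 CPM with GC0643 and 49.7, 46.9 and 49.2 CPM with vector, also without overlap (-0.24, unadjusted p = 0.0731). VARS2 did not overlap between groups either. An lncRNA annotated in GENCODE v44 shares 63% of the VARS2 exon bases, but it has no row in the count table. EARS2, the mitochondrial glutamate enzyme, was at -0.11, LARS2 at -0.15 and PARS2 at -0.25, the last with the widest standard error of the 35 (0.20).

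Promoters of cytosolic synthetase genes are known to hold composite elements bound by ATF4 together with a C/EBP partner, so the RefSeq promoter windows (GRCh38.p14, 250 bases before to 50 after a start) were searched for TGATGNAA on both strands. Windows were matched by symbol for 30 of the 35 genes, and VARS2, AARS2, YARS1, LARS1 and VARS1 were not matched. The letters were found for 8 of the 30, which are 7 of 16 cytosolic genes and 1 of 14 mitochondrial genes, and for 4.46% of all 27305 genes with a window. The matches are shown with up to 11 bases on each side, 5′ to 3′ on the strand of the gene, with the match in capitals (TTNCATCA is the same motif on the other strand).
AARS1, chr16:70289675-70289704, minus strand: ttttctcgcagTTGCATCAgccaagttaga
CARS1, chr11:3057407-3057436, minus strand: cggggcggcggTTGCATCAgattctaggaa
GARS1, chr7:30594834-30594863, plus strand: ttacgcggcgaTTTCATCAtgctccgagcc
IARS1, chr9:92293692-92293721, minus strand: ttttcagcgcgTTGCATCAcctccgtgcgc
MARS1, chr12:57488053-57488082, plus strand: gccggttccggTTGCATCAgcgagggattc
NARS1, chr18:57621804-57621833, minus strand: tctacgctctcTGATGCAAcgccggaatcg
TARS1, chr5:33440956-33440985, plus strand: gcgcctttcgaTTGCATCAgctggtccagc
YARS2, chr12:32756076-32756105, minus strand: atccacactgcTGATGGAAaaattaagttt
In 6 of the 7 cytosolic genes the match reads TTGCATCA or its reverse complement TGATGCAA, while GARS1 differs in the free position. A match is a description of the letters and not evidence of binding.

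The genes with these letters did not share a direction. IARS1 (0.23), NARS1 (0.26), TARS1 (0.29) and YARS2 (0.12) had positive fold changes, and AARS1 (-0.21), CARS1 (-0.26), GARS1 (-0.029) and MARS1 (-0.25) negative ones. IARS1, NARS1 and TARS1 have transcripts of 41.7% to 43.3% GC, and AARS1, CARS1 and MARS1 of 52.9% to 53.3% GC. The 7 cytosolic genes with the motif had a median of -0.029, and the 9 cytosolic genes with a window and no match one of -0.12. AARS1 had 471, 410 and 406 CPM with GC0643 and 482, 410 and 597 CPM with vector, and CARS1 had 135, 120 and 116 CPM with GC0643 and 140, 132 and 173 CPM with vector. In both, Vector control replicate 3 was the highest library.

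That library was also the highest for ATF4 itself, which was at 607, 562 and 516 CPM with GC0643 and 609, 580 and 680 CPM with vector (log2 fold change -0.15, unadjusted p = 0.212). Of 21 listed ATF4 targets outside the synthetases, 4 had positive and 17 negative fold changes, with a median of -0.38. Lower at an unadjusted p under 0.05 were 9 of the 21, where 5.26% of all genes were. This count ran from 3 without Vector control replicate 3, where 527 of all genes were lower, to 15 without GC0643 overexpression replicate 1, where 567 were. The 2 with the smallest p were SLC7A5, a subunit of the large neutral amino acid transporter, at -0.41 (unadjusted p = 0.00501), and NUPR1, a stress-induced nuclear protein, at -0.66 (unadjusted p = 0.00627). NUPR1 had 92.4, 67.1 and 62.0 CPM with GC0643 and 102, 84.7 and 164 CPM with vector. Without Vector control replicate 3, the list had 12 positive and 9 negative fold changes and a median of 0.013. After the GC correction its median was -0.35 with all 21 negative. None of the 21 passed an adjusted p of 0.05 in edgeR's quasi-likelihood test after the filter on low counts. Without the filter 7 did, all lower, where 224 of all genes passed in either direction. Without Vector control replicate 2, 10 did, all lower, where 4.36% of all genes passed as lower.

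With all 6 libraries, none of the listed genes that act with the synthetases passed an adjusted p of 0.05 in edgeR's quasi-likelihood test. Without Vector control replicate 2, where 14.7% of all genes passed as higher, QRSL1 (adjusted p = 0.0275) and IMPACT (adjusted p = 0.0351) did so among the genes that follow here. Of 4 partners of mitochondrial aminoacylation, QRSL1, a subunit of the amidotransferase that makes mitochondrial glutaminyl-tRNA, was at 0.42 (unadjusted p = 0.0277) with no overlap between groups, and its fellow subunits GATB and GATC were at -0.18 and 0.085. MTFMT, which formylates the mitochondrial initiator tRNA, was at 0.061. None of the 3 genes of the selenocysteine route (PSTK, SEPSECS and SEPHS2) and none of the 3 editing genes (AARSD1, DTD1 and DTD2) had an unadjusted p under 0.05. Among 4 genes of the response to uncharged tRNA, IMPACT, an inhibitor of GCN2 activation, was at 0.46 (unadjusted p = 0.00757), with 38.3, 28.0 and 31.5 CPM with GC0643 and 21.5, 24.8 and 24.7 CPM with vector and no overlap. EIF2AK4, which encodes GCN2, was at 0.21 and its activator GCN1 at -0.17. The transcripts of QRSL1 and IMPACT are at 40.5% and 37.4% GC. After the GC correction QRSL1 was at 0.16 (unadjusted p = 0.267) and IMPACT at 0.12 (unadjusted p = 0.364, edgeR's quasi-likelihood test).

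Of 9 mitochondrial translation factors, 7 had positive and 2 negative fold changes, with a median of 0.31 and a median GC content of 41.4%. GFM2, an elongation factor that acts in ribosome recycling, was at 0.39 (unadjusted p = 0.0146) and the release factor MTRF1L at 0.41 (unadjusted p = 0.0308). TUFM, the elongation factor that carries charged tRNAs to the mitochondrial ribosome, was at -0.25 (unadjusted p = 0.0428), with a transcript of 57.4% GC. All of these had adjusted p-values above 0.05 in edgeR's quasi-likelihood test with all 6 libraries. Without Vector control replicate 2, GFM1 (adjusted p = 0.0297), GFM2 (0.0214) and MTRF1L (0.0215) were below it, where 14.7% of all genes passed as higher. After the GC correction with all 6 libraries, GFM1 was at 0.084 (unadjusted p = 0.544) and GFM2 at 0.14 (unadjusted p = 0.213). MTRF1L was then at 0.17 (unadjusted p = 0.200) and TUFM at -0.097 (unadjusted p = 0.267, all in edgeR's quasi-likelihood test).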

How the data were processed

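RNA of 6 HGC-27 libraries was sequenced. The deposited values are raw gene counts that the authors made with Trimmomatic 0.32, HISAT2 2.1.0 and featureCounts 2.0.0 on GRCh38, per the submitters' processing notes, and the counting options of these libraries are not given in the sources used here. For its tumor libraries the study states counting of paired reads over exons with reads assigned to every gene they overlap and names no strand option. Each group's libraries were taken from the labels. Genes were annotated with GENCODE v44, which matched 58472 of 58825 identifiers. Genes with low counts were removed (filterByExpr) and counts were scaled by TMM and tested with the quasi-likelihood test of edgeR 4.0.16 (R 4.3.3), without covariates, with Benjamini-Hochberg adjustment over 19528 genes. The biological coefficient of variation was 14.8%. CPM are TMM-scaled, and levels between genes were divided by the length of the canonical transcript. The GC correction fitted a loess curve (span 0.3) to each library's log2 CPM minus the gene's mean over the libraries, against transcript GC content. The fitted values, centred over the libraries, entered the test as an offset for each gene and library. A permutation test of 3 against 3 libraries cannot go below 0.1 and was not used.

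The counts of calls and the fold changes of the synthetases and their medians were repeated with DESeq2 1.42.0, the likelihood ratio test of edgeR, limma 3.58.1 (voom), other scaling and filters, protein-coding genes alone, length and GC corrections, a replicate block and the omission of each library. The members and lists were chosen with earlier results of these data known. Every synthetase gene is named. Full values are given for the 4 genes of each compartment with the smallest p, pairs for the same amino acid that differ in sign where 1 has an unadjusted p under 0.05, and up to 2 genes of the other lists. FARSA, AARS1, CARS1, WARS1, YARS1, EPRS1, RARS1, GARS1, KARS1, NARS2 and AARS2 and the partners with values were added as examples after their values were seen. Scripts were tested on simulated data.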

Additional observations from a re-analysis of the deposited data

How the results depend on the processing

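The count of genes past an adjusted p of 0.05, 0 in edgeR's quasi-likelihood test, was 16 with the likelihood ratio test, 11 with DESeq2, 1 with DESeq2 size factors, 224 without a filter, 24 with the replicate block, 2 with the replicate block and the GC correction, and 0 to 3813 with 1 library left out, the highest without Vector control replicate 2. Genes higher at an unadjusted p under 0.05 (2553) numbered 561 with the GC correction, 1572 with the length correction, 395 with the block and the GC correction, 1364 with the GC correction without Vector control replicate 2 (chosen after seeing the data), and 827 to 4564 with 1 library left out. Genes lower (1028) numbered 633, 1688 and 391 with the GC correction, the length correction and the block with the GC correction, 314 with the block, and 367 to 2842 with 1 library left out. The cause of these moves was not tested.

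The cytosolic median (-0.12) was -0.051 with the GC correction, -0.049 with the block as well, and -0.19 to -0.064 with 1 library left out. The mitochondrial median (-0.10) was -0.015 with the GC correction, -0.016 with the block as well, -0.031 with the GC correction without Vector control replicate 2, -0.18 with the length correction, and -0.15 to -0.033 with 1 library left out. The length correction put the cytosolic median 0.069 above the mitochondrial one. FARSB turned negative with the GC correction (-0.037), with the block as well (-0.034) and with the GC correction without Vector control replicate 2 (-0.098). Equal replicate numbers did not pair the libraries (Pearson r of their deviations across genes -0.21, -0.03 and -0.31), and the replicate block changed no sign among the 35 genes. PARS2, with the lowest level of the 35, also had the widest standard error.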
